A study of Rattus norvegicus with 6 samples.

Results

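The microRNA-34 (miR-34) family was followed in rat heart muscle 4 weeks after the left anterior descending coronary artery had been ligated. The family was taken as every miRNA on the array whose name begins with rno-miR-34a, rno-miR-34b or rno-miR-34c, on either arm of the hairpin, detected or not. This gave 6 of the 758 rat miRNAs, read by 14 of the 1806 probes. RNA came from the left ventricle of male Sprague-Dawley rats, 3 in the model group, in which the artery was tied to produce an acute myocardial infarction, and 3 in the control group, in which a thread was passed without ligation. According to the methods, 5 rats were prepared per group, 3 of them were picked at random for the arrays, and the tissue lay at the margin of the infarct. Age was not given. Each rat had 1 array, and all 6 arrays lay on 1 slide scanned in 1 session, with controls 1 to 3 and model 1 in the first row and models 2 and 3 in the second.

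A miRNA is a short RNA that pairs with messenger RNAs mainly through its seed, bases 2 to 8 from the 5′ end, and lowers their output. The tumour suppressor p53 is known to switch on transcription of the genes for miR-34a and for the miR-34b and miR-34c pair, and known targets of the family act in the cell cycle, survival and ageing. In heart, miR-34a is the member best known, mainly for its rise with age and after injury, while miR-34b and miR-34c are best known from ciliated epithelium and testis. Transcript levels of p53 were not measured on these arrays.

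The mature sequences are shown first because the members share a seed and differ in their remaining bases, which the probes must tell apart. They are RefSeq entries, written 5′ to 3′ with the seed in capitals.
miR-34a-5p: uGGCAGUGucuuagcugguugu
miR-34b-5p: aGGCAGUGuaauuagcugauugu
miR-34c-5p: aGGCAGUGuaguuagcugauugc
miR-449a-5p: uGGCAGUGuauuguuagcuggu
miR-449c-5p: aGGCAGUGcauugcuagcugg
miR-34a-3p: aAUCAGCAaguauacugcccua
miR-34b-3p: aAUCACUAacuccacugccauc
miR-34c-3p: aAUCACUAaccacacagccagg

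The seed GGCAGUG was present in 5 of 693 mature rat sequences, namely the 5p arms of miR-34a, miR-34b and miR-34c together with miR-449a-5p and miR-449c-5p, which belong to a related family. The 3p arms carried other seeds: AUCACUA was held by 2 sequences, miR-34b-3p and miR-34c-3p, and AUCAGCA by miR-34a-3p alone. From miR-34b-5p to miR-34c-5p there were 2 substitutions, A11G and U23C, counted from the 5′ end of miR-34b-5p. By contrast, miR-34a-5p was 4 single-base edits from miR-34b-5p and 5 from miR-34c-5p. In the rat assembly GRCr8 the miR-34a hairpin lies on the plus strand at chr5:165815952-165816053, wholly inside the long non-coding RNA gene LOC103692514. The other hairpins lie on the minus strand of chromosome 8, miR-34c at chr8:60306091-60306167, wholly inside the protein-coding gene Hoatz, and miR-34b at chr8:60306609-60306692, partly overlapping it, with 441 bases between them. These positions are RefSeq's, since the array files name no genome build.

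A probe was called detected where its signal exceeded 3 times its error, both as the scanner software reported them, and the signal of a miRNA was the sum over its detected probes. Between 206 and 222 of the 758 miRNAs were detected on an array, which is 27.2% to 29.3%, and 0 spots were saturated. The family divided by this measure into 1 member well above background, 1 near the limit and 4 at or below it. Both probes of miR-34a-5p were detected on 6 of 6 arrays, at 9.58 to 9.98 times their error. miR-34c-5p was detected on 4 of 6 arrays, controls 1 and 2 and models 1 and 2, and on each by the same 1 of its 2 probes. miR-34b-5p was detected on 1 of 6 arrays, model 2, again by 1 probe. None of the 3p arms was detected on any array: the highest ratio of signal to error was 1.30 for miR-34a-3p, 1.55 for miR-34b-3p and 1.17 for miR-34c-3p. The miRNAs of the related family with the same seed were not detected either, at no more than 0.174 times the error for miR-449a-5p and 0.128 for miR-449c-5p. Below the limit a signal gives only a bound, so that absence was not shown for any of them.

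**Figure D1:**
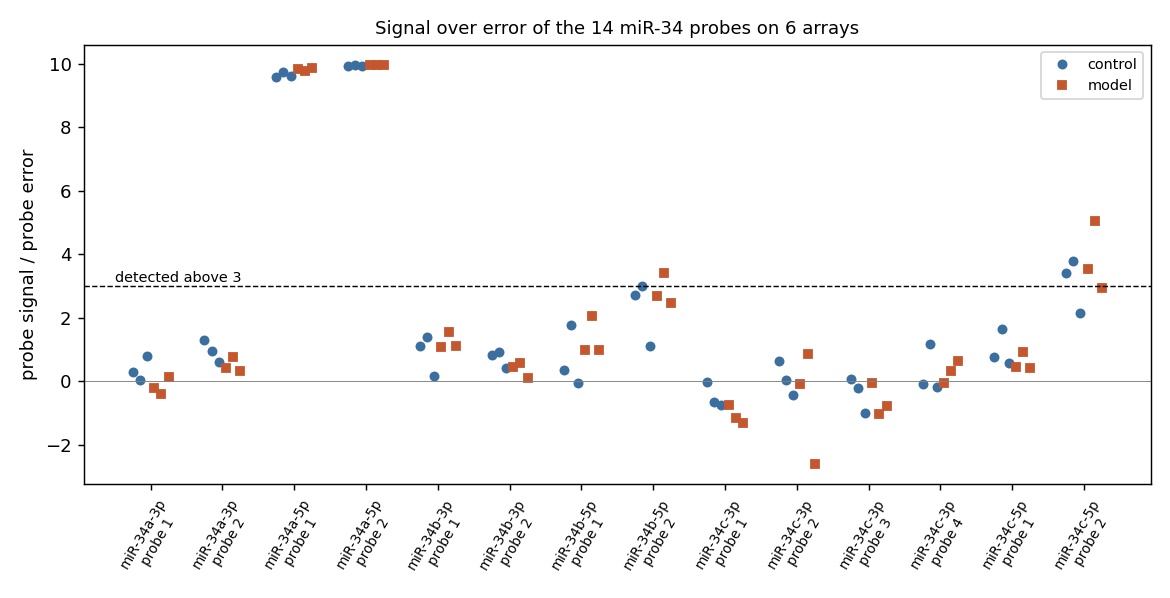
Signal divided by error for each of the 14 family probes, with one point per array for the 3 control and 3 model arrays and a line at the detection limit of 3. Both miR-34a-5p probes lie near 10 on every array, 1 miR-34c-5p probe crosses the limit on 4 arrays and 1 miR-34b-5p probe on 1 array, and the probes of the 3p arms stay below it.

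miR-34a-5p was measured at similar levels in both groups. The signal of rno-miR-34a-5p was 118, 172 and 116 units in controls 1, 2 and 3, and 187, 164 and 163 units in models 1, 2 and 3. Control 2 therefore lay among the model animals, and the groups overlapped. The arrays also differed in overall brightness, so the signals of an array were expressed against its own 75th percentile, taken over the 198 miRNAs that no array missed. That percentile was 145, 189 and 146 units in the controls and 203, 193 and 168 in the models. On that scale miR-34a-5p stood at 81.2%, 90.8% and 79.7% of the percentile in the controls and at 91.9%, 84.9% and 96.8% in the models. Control 2 again exceeded model 2.

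The mean log2 scaled level of miR-34a-5p was -0.26 ± 0.10 for the controls and -0.13 ± 0.095 for the models (SD, n = 3 each). The model-minus-control difference was 0.12 (SE 0.092, 95% confidence interval -0.11 to 0.35), a 1.09-fold ratio, and did not pass the test across all miRNAs (limma, Benjamini-Hochberg adjusted p = 0.352). The two-sided exact permutation test gave p = 0.20, where 3 against 3 arrays cannot give less than 0.10. Of the 214 miRNAs tested, 49 (22.9%) were called by limma at an adjusted p under 0.05. In the model group 22 (10.3%) of them stood higher and 27 (12.6%) lower. Of the 6 family members 1 was tested and 0 were called by limma, and 0 reached an unadjusted p under 0.05 in this main setting. The unmoderated test that the methods name, here with Benjamini-Hochberg adjustment and without their fold limit, called 0. The direction of miR-34a-5p was upward in all alternatives but 1, scaling to the 75th percentile of all miRNAs, where the difference was -0.0050, and it passed the test in 1, the totals as deposited, described below.

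Measured from 0 on this scale, the difference of miR-34a-5p was small beside those of the other miRNAs. An absolute log2 difference below its own was found in 45 of the 214 tested (21.0%), and the median absolute difference was 0.26. The spread of miR-34a-5p between animals, 0.10 and 0.095 on the log2 scale, was below the median spread of the tested miRNAs, 0.14 among controls and 0.17 among models. The scaling left those 198 miRNAs with a median log2 difference of -0.15, and relative to that median miR-34a-5p was higher by 0.27, with 0.21 to 0.33 over 23 alternative settings. No test was made of this relative value.

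**Figure D2:**
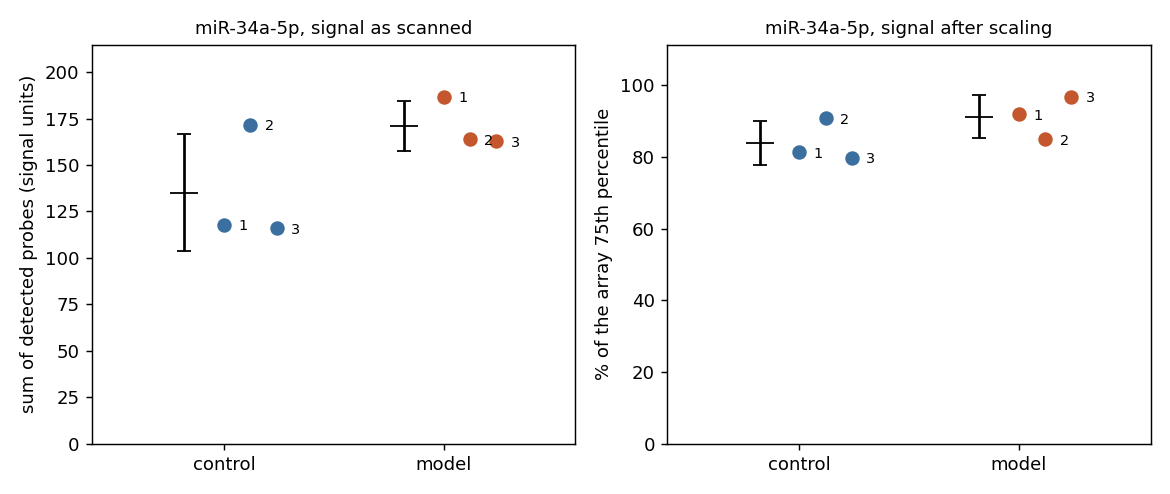
Signal of miR-34a-5p on each array as the sum of its detected probes in scanner signal units (left) and as % of the array's 75th percentile (right), with points numbered by animal and a cross and bar for the group mean ± SD (n = 3). Scaled levels span 79.7% to 90.8% in the controls and 84.9% to 96.8% in the models, so that the groups overlap in both panels.

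Both probes of miR-34a-5p gave the same picture. The dimmer, A_26_P00001279, read 31.3, 43.8 and 31.2 units in the controls and 48.6, 41.9 and 42.5 in the models. The brighter, A_26_P00001280, read 86.5, 128 and 84.8 units in the controls and 138, 122 and 120 in the models. On each probe control 2 lay within the range of the models. After scaling, the model-minus-control log2 difference was 0.098 for the dimmer and 0.13 for the brighter probe (exact permutation p = 0.20 for each). The brighter probe supplied 73.1% to 74.5% of the signal, and its ratio to the dimmer one stayed between 2.72 and 2.92 over the 6 arrays. Repeat spots of each probe on an array, 8 per probe, had a coefficient of variation of 3.51% to 11.7%.

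miR-34c-5p, which shares a primary transcript with miR-34b, was close to the limit in both groups. The brighter probe of rno-miR-34c-5p, A_26_P00001277, read 3.42, 3.94 and 1.90 units in controls 1, 2 and 3 and 3.40, 5.22 and 2.22 units in models 1, 2 and 3. Each group thus held 2 detected arrays and 1 undetected one, with ratios to the error of 2.15 on control 3 and 2.94 on model 3. The second probe stayed at 0.298 to 1.59 units and was never detected. As a share of the array's 75th percentile, the brighter probe's signal was 1.92% ± 0.547 for the controls and 1.90% ± 0.722 for the models (SD, n = 3 each), a log2 difference of -0.035 (exact permutation p = 1). The coefficient of variation of its 8 repeat spots was 21.8% to 35.0%.

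A miRNA had to be detected in all 3 arrays of at least one group to be tested, and miR-34c-5p was not. With undetected arrays set to a floor of -6.50 on the log2 scale, its log2 difference was -0.039, from -5.83 ± 0.59 for the controls and -5.87 ± 0.65 for the models (SD, n = 3 each, floored arrays included). The unfloored signals of the brighter probe on those arrays, 1.31% on control 3 and 1.32% on model 3, lay above that floor. Without the detection filter the fit gave a 95% confidence interval of -1.43 to 1.35 for that difference (limma, adjusted p = 0.954). With detection set at 2 errors, a setting added after the data had been seen, the difference was -0.093, with an interval of -0.88 to 0.69 (limma, adjusted p = 0.820). Without control 3 it was -0.39 (limma, adjusted p = 0.531) and without model 3 it was 0.26 (limma, adjusted p = 0.661). The sign also turned when a detected array was left out, with floored differences of 0.18 without control 1 and 0.071 without control 2, against -0.38 without model 2. A change of miR-34c-5p in either direction, within the bounds of these intervals, could not be told from no change at this signal.

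miR-34b-5p was nearer to background still. Its brighter probe, A_26_P00002772, read 2.67, 3.01 and 0.967 units in the controls and 2.49, 3.23 and 1.83 units in the models. The groups overlapped, and model 2 was the one array past the limit. The highest and the next array lay on either side of it, at 3.42 times the error on model 2 and 2.996 times on control 2.

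The brighter probes of miR-34b-5p and miR-34c-5p placed the 6 arrays in the same order of unscaled signal, model 2, control 2, control 1, model 1, model 3 and control 3. This is a description over 6 arrays, and both signals of an array also share its brightness. The mature sequences differ by 2 bases, so cross-hybridisation between them is uncertain. After scaling, control 1 moved to the top for miR-34b-5p, at 1.84% against 1.68% for model 2, while model 2 stayed at the top for miR-34c-5p, at 2.71%. miR-34a-5p ordered the unscaled arrays differently, with model 1 first and control 2 next.

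**Figure D3:**
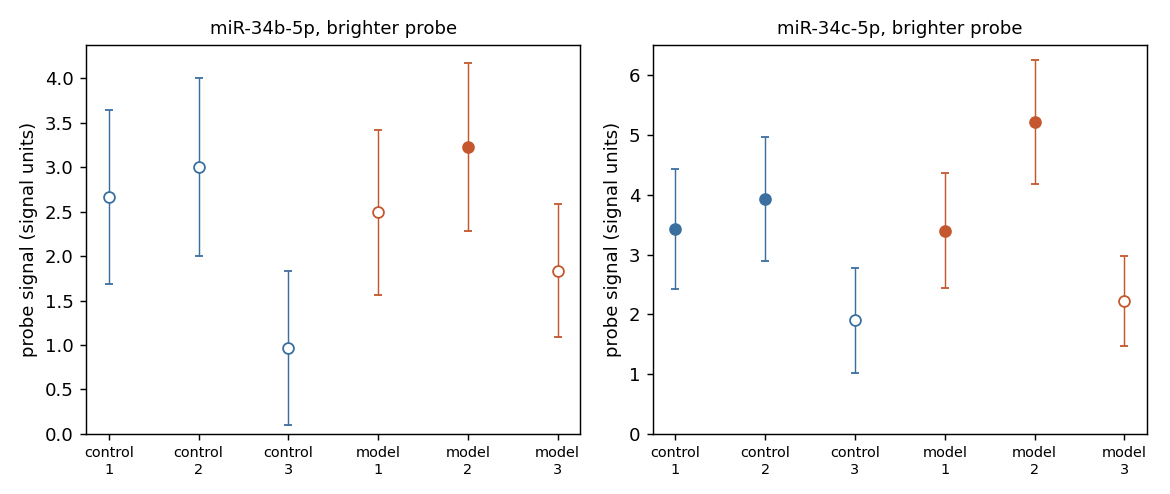
Signal of the brighter probe of miR-34b-5p (left) and of miR-34c-5p (right) on each array, in scanner signal units, with bars of 1 scanner error and filled points where the signal exceeds 3 errors. The miR-34c-5p probe spans 1.90 to 5.22 units and the miR-34b-5p probe 0.967 to 3.23 units, and controls and models overlap in both.

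The totals per miRNA deposited in the scanner files gave a different picture of the weak members. For miR-34c-5p they were 121 and 176 units on controls 1 and 2 and 190 and 172 units on models 1 and 2, where its own detected probe held 3.42, 3.94, 3.40 and 5.22 units. The deposited total was 35.4, 44.6, 55.9 and 33.0 times the sum of its detected probes on those arrays. For miR-34b-5p on model 2 it was 167 units against 3.23 units, 51.7 times as much. In each of these 5 cases the excess equalled the deposited total of the detected miRNA listed before it in the file, to within a share of 0.0001 of the total itself. On model 2 the total of miR-34a-5p had passed to miR-34b-5p and from there to miR-34c-5p. The 6 totals of miR-34a-5p carried no such excess. Over the whole series 289 of 289 inflated totals were accounted for in the same way, 47 to 51 per array, so that all values given here rest on the probes.

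**Figure D4:**
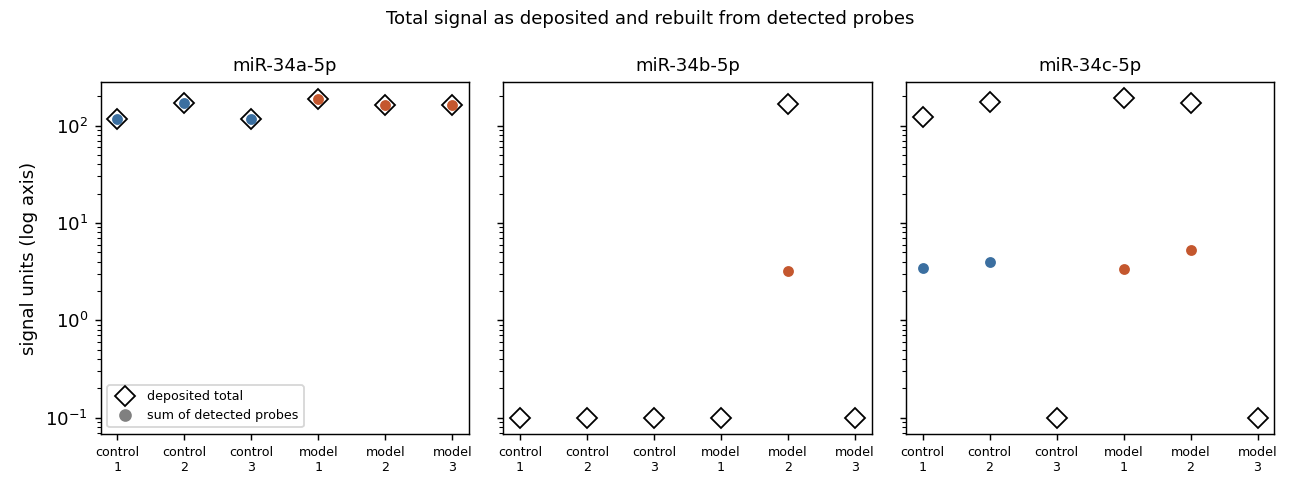
Deposited total (open diamonds) and sum of detected probes (filled circles) for the 11 detected family totals on the 6 arrays, in scanner signal units on a log axis, with undetected totals at the deposited placeholder of 0.1. The markers coincide for miR-34a-5p and part by 33.0 to 55.9 times for miR-34c-5p and 51.7 times for miR-34b-5p.

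The authors also deposited a table of normalized log2 values. There miR-34a-5p was at 7.20, 7.31 and 7.20 in the controls and 7.36, 7.31 and 7.36 in the models, a difference of 0.11 (limma, adjusted p = 0.348). In that table miR-34c-5p was at 2.10, 2.00 and -3.25 in the controls and 1.65, 2.16 and -3.31 in the models, the lowest values falling on the 2 arrays where it was undetected and being equal to the medians of those columns. The rule behind this normalization was not given in the sources used here.

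Other miRNAs whose genes p53 is known to induce, or whose processing it promotes, were read from a fixed list of 10, which holds the 5p arms of miR-34a, miR-34b and miR-34c. Of the 6 tested limma called 0, beside 22.9% of all miRNAs, while 1 reached an unadjusted p under 0.05 and the unmoderated test called 0. The median log2 difference was -0.14 for the 6 and also -0.14, after rounding, for all 214. That of the 6 turned to 0.17 with the totals as deposited and to 0.10 without scaling. miR-16-5p, which restrains the cell cycle, differed by 0.069 (adjusted p = 0.660). miR-143-3p and miR-145-5p, both abundant in smooth muscle, each differed by -0.17 (adjusted p = 0.365 and 0.267). These adjusted p-values are limma's.

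miR-107-3p had the largest difference of the 6 in size, -0.34 (SE 0.10, limma adjusted p = 0.0676), with scaled levels that did not overlap between groups, as for 47.2% of all tested miRNAs. It was called in 2 of 23 alternative settings. Its sequence departs from that of miR-103-3p by 1 substitution, C22G counted from the 5′ end of miR-107-3p, so cross-hybridisation between the pair is uncertain. miR-192-5p, best known from gut and kidney, read 3.71, 11.7 and 6.19 units in the controls and 11.3, 4.38 and 7.15 in the models. Its groups overlapped over their whole range, and the difference of -0.11 had an interval of -1.21 to 0.99 (limma, adjusted p = 0.881). Its genomic partner miR-194-5p was detected on 4 of 6 arrays and not tested, and miR-215 was never detected.

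A second fixed list held 4 miRNAs known to repress p53 itself, of which 3 were tested. Limma called 1 of them higher in the model group and 0 lower, beside 10.3% higher and 12.6% lower of all miRNAs tested. The one called was miR-125b-5p. Its signal was 1051, 1311 and 974 units in the controls and 1842, 2260 and 1666 in the models, with no overlap. Its scaled levels did not overlap either, as for 47.2% of all tested miRNAs. The scaled log2 difference was 0.55 (SE 0.11, 95% confidence interval 0.27 to 0.83, limma adjusted p = 0.0217), 1.46-fold, and was higher in 3 of 3 model animals. The call held in 15 of 23 alternatives, 2 of the 6 that left out an array among them. It was lost without control 1, 2 or 3 (limma adjusted p = 0.0834, 0.0637 and 0.0686) and without model 3 (limma adjusted p = 0.0581). It was also lost by the unmoderated test (adjusted p = 0.0535), with the replicate number as a block (limma adjusted p = 0.0855) and without the detection filter (limma adjusted p = 0.177). The slide row as a block, also without the call, gave a difference of 0.38. That setting compares model 1 alone with the controls, since models 2 and 3 filled the second row. miR-30d-5p differed by -0.45 (limma adjusted p = 0.0793), and its scaled levels did not overlap between groups. It was called lower in 4 of 23 alternatives, 0 of the 6 that left out an array among them. miR-25-3p differed by -0.13 (limma adjusted p = 0.311), while miR-504 was never detected.

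**Figure D5:**
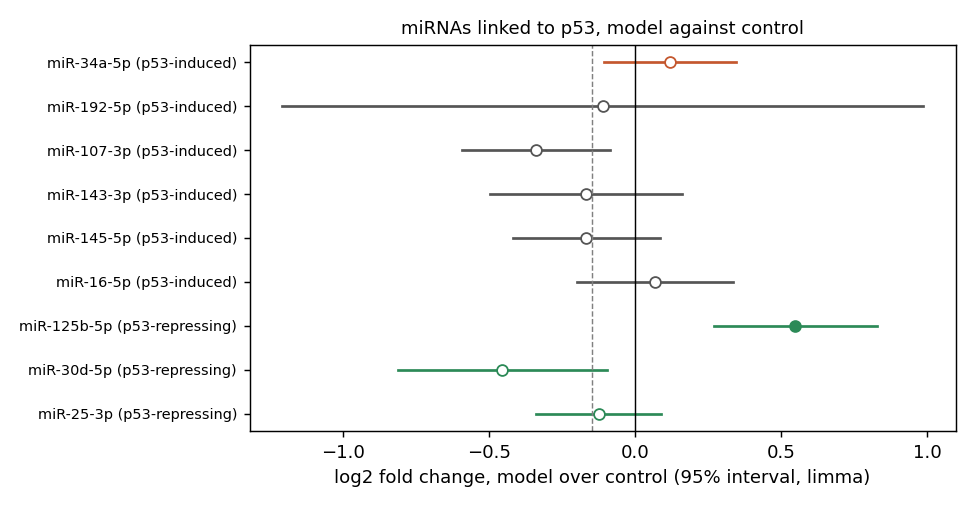
Model-minus-control log2 difference with its 95% confidence interval (limma) for the tested miRNAs of the p53-induced list (miR-34a-5p in orange, the others in grey) and the p53-repressing list (green), filled where called, with a dashed line at the median of -0.15 of the 198 miRNAs detected on all arrays. The interval of miR-34a-5p runs from -0.11 to 0.35 across 0, and that of miR-125b-5p from 0.27 to 0.83.

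Of the 197 other miRNAs detected on all arrays, the 3 whose scaled log2 profile over the 6 arrays was most like that of miR-34a-5p were miR-98-5p, miR-103-3p and miR-23a-3p. Likeness was the root mean square difference of the profiles after centring, 0.061, 0.065 and 0.069 log2 units. Their own group differences were 0.021, 0.048 and 0.19 (limma adjusted p = 0.882, 0.680 and 0.105). Since likeness was taken over the same arrays, differences close to that of miR-34a-5p follow from the choice. These p-values are therefore no separate evidence.

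Markers of other cell types were read beside the family, and the counts of those called by limma stand against 22.9% of all miRNAs. Of 6 cardiomyocyte miRNAs 5 were tested, and limma called 3 lower and 0 higher in the model group. Their summed level was 114 to 138 times the 75th percentile in the controls and 60.9 to 85.1 times in the models. The scaled levels of all 5 did not overlap between groups, as for 47.2% of all tested miRNAs, with log2 differences of -0.87 to -0.68. The largest in size, of miR-208a-3p, came from signals near the limit, with model 2 undetected and set to the floor. The 3 called were miR-1-3p, miR-133a-3p and miR-133b-3p, all detected on all 6 arrays. Cross-hybridisation between miR-133a-3p and miR-133b-3p, which differed by -0.68 and -0.72, was not tested, so they may not count separately. Limma did not call miR-208a-3p or miR-499-5p (adjusted p = 0.0988 and 0.0929), and miR-208b-3p was never detected. Of 4 fibroblast or matrix miRNAs limma called 4 higher, with a summed level of 3.85 to 4.74 in the controls and 10.2 to 14.4 in the models. These were miR-199a-5p, miR-199a-3p, miR-214-3p and miR-21-5p. The paper reports every member of this list as raised on these same arrays. The count for this list is therefore not an independent test of fibroblasts, and its comparison with all miRNAs decides nothing. Both endothelial miRNAs, miR-126a-3p and miR-126a-5p, are arms of 1 hairpin and so are not separate evidence. Both were called lower, with sums of 8.16 to 9.17 in the controls and 5.98 to 6.66 in the models. Of 4 tested leukocyte miRNAs 1 was called higher and 1 lower, with sums of 2.11 to 2.39 and 1.52 to 1.85. The one higher was miR-155-5p, with a log2 difference of 1.07, and the one lower miR-150-5p, with -0.60. miR-142-3p and miR-223-3p differed by -0.073 and 0.15, and their levels overlapped between groups. miR-150-5p was the brightest of the 4, at 239, 356 and 252 units in the controls and 221, 205 and 224 in the models. The lower sum of the models therefore followed miR-150-5p and not the list as a whole. Both tested red cell miRNAs had lower means, miR-451-5p by a log2 difference of -0.53 and miR-486 by -0.68, of which limma called miR-486, and the sums were 1.79 to 2.10 and 1.13 to 1.43.

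Many of these calls rested on the setting. Cardiomyocyte calls fell to 0 with the totals as deposited, without scaling, without the detection filter, by the unmoderated test and with the replicate block. They also fell to 0 without any one control and without model 1, while the median log2 difference of the list stayed between -0.85 and -0.38. Endothelial calls fell to 0 with the totals as deposited, without scaling, without the filter, with the replicate block and without control 1. Leukocyte and red cell calls fell to 0 with the totals as deposited, without the filter, with the replicate block and without control 1. Those of red cells also fell to 0 without scaling and in the authors' values. Fibroblast or matrix calls were 4 in all settings except without the filter, where they were 2. Calls with the slide row as a block are left out here, because that setting compares model 1 alone with the controls. All 8 epithelial and both neuronal miRNAs were never detected. The part of these shifts in the level of miR-34a-5p was not tested, and in bulk tissue fewer cells of a type and less RNA per cell cannot be told apart.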

How the data were processed

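Per the labels, total RNA was extracted with mirVana, labelled with Cy3 and hybridised to 1-colour Agilent rat miRNA arrays. Probe intensity values were deposited as written by Feature Extraction 10.7.1.1, with 12128 spots per array. A second deposited table holds normalized log2 values, with column medians of -3.31 to -3.22 and a Pearson correlation with the rebuilt log2 signals of 0.992 to 0.999 over detected miRNAs; its scaling rule was not given and it was used as an alternative. The deposited total per miRNA was not used, because it carried over other miRNAs' totals.

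Signals were rebuilt as sums of probes above 3 errors, divided by each array's 75th percentile over the 198 miRNAs detected on all arrays, floored at -6.50 and log2-transformed. A miRNA was tested if detected on all arrays of at least one group. Differences were tested by the moderated test of limma 3.58.1 under R 4.3.3, with Benjamini-Hochberg adjustment over 214 miRNAs, checked on simulated data. Single values were tested by exact permutation over arrays. Replicates were separate animals. Same-numbered arrays had correlations of -0.26, 0.0011 and 0.16 in their deviations. Alternatives covered scaling, filter, test, block and left-out arrays. Named miRNAs were the family, the list members and the 3 most alike profiles. Members and lists were chosen with earlier results of these data known. The number of arrays, 3 per group, limits the precision.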

Additional observations from a re-analysis of the deposited data

How the results depend on the processing

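miR-34a-5p was higher in the model group in 22 of 23 alternatives and called in 1. It reached an unadjusted limma p under 0.05 in 2, the totals as deposited and median centring. With the totals as deposited its log2 difference was 0.46 (limma adjusted p = 0.0211), and with the 75th percentile of all miRNAs it was -0.0050 (limma adjusted p = 0.986). Its own signals were the same in both, where only the scaling signal differed. Leaving out 1 array gave 0.063 to 0.17. The count of called miRNAs, 49, was 19 without scaling, 9 without the detection filter, 26 by the t-test of the methods, 29 with the slide row as a block, and 14 to 39 when an array was left out, with 14 without control 1, 26 without control 2 and 27 without control 3. Animal numbers did not pair the arrays, and with the replicate block 16 were called and miR-34a-5p differed by 0.12 (limma adjusted p = 0.479). Higher and lower calls split 22 to 16 by quantile scaling, 19 to 47 by the 75th percentile of all miRNAs, 19 to 0 without scaling, 30 to 16 by median centring, 35 to 1 with deposited totals and 23 to 14 in the authors' values, against 22 to 27. Of the other 5 arms, miR-34c-5p was tested in 4 alternatives and the rest only without the filter or at 2 errors. Limma called 0 in those, with 0 at an unadjusted p under 0.05, and the 3p arms lay wholly at the floor, so their test says nothing. A block for slide or scan was not possible with 1 of each. Signal near background limits miR-34b-5p, miR-34c-5p and the 3p arms.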
